A study of Mus musculus with 3 samples.

Results

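Methylated DNA in mouse colon organoids that carried an activated Braf oncogene and grew without niche factors was compared with that in organoids that had received an empty vector. The comparison took 2 of the 3 libraries of the study, the Braf library grown in Base medium and the empty vector library (EV) grown in full medium. These 2 were chosen for their low background, with earlier results of these data known. The comparison was made genome-wide, over 20665 protein-coding genes on chromosomes 1 to 19, each read at both ends, and over 2462738 tiles of 1 kb. Each side held 1 library. No difference below therefore has a replicate check, no p-value is given, and an interval beside a ratio covers counting error only.

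In mammalian genomes most CpG dinucleotides outside CpG islands are methylated, while CpG islands, the CpG-dense stretches at many gene starts, are mostly free of methylation. Genes of developmental regulators often have such islands and, in differentiated cells, are commonly held silent by Polycomb proteins. In a subset of human colorectal cancers, many with BRAF V600E and a serrated origin, many islands become methylated together, which is called the CpG island methylator phenotype. BRAF is a kinase of the MAPK cascade, and V600E keeps it active. The stem cells at the base of colon crypts depend on niche signals, among them Wnt ligands, R-spondin, the BMP antagonist Noggin and EGF.

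The organoids came from crypts of the first 2.5 cm of the proximal colon of male mice aged about 40 days, heterozygous for a Cre-activable Braf V600E allele (Braf+/LSL). Lentiviral Cre switched on the allele in the Braf organoids, and EV organoids received the lentiviral backbone alone. All were cultured for 5 months and then for a further 3 weeks, EV in full medium with Wnt3a, R-spondin, Noggin and EGF, and the Braf organoids compared here in Base medium, without those factors, in which they had been selected to grow. Cre, active Braf, the selection and the medium differ together between the libraries and cannot be told apart. The number of mice behind each library and whether the organoids were clonal are not stated in the labels. The third library, Braf organoids kept in full medium, is given only as a value beside named genes.

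Methylated fragments were captured with a methyl-CpG-binding domain protein and sequenced (MBD-seq). The unit throughout is normalised coverage, the deposited value per bin of 200 bp brought back from the log2 scale, less its floor. Its mean per bin was 0.0511 in EV and 0.0447 in Base medium, from an estimated 5041726 and 5985362 reads. No read fell in 87.2% and 83.0% of the bins, and mean coverage in uncovered tiles over 10 kb from any gene end was 0.00527 and 0.00554, so the background of these libraries was low and alike. In the third library only 43.3% of the bins had no read. Its low values therefore hold more background. A gene end was taken as the stretch from 1 kb before to 1 kb after the end of the gene, and compared by the log2 ratio of Base medium over EV, with 0.0597 added to both. Ends with a ratio of 1 or more are called gained and those with -1 or less lost, provided that the higher library reached 0.119, and 1 such end suffices to count its gene. Coverage pools all cells of a library, so more methylated CpG sites per cell and more cells with methylation cannot be told apart. Coverage at a marker gene is not its expression, and the cell type in the labels could not be checked with it.

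More genes gained methylated-DNA coverage in Braf organoids in Base medium than lost it. Of the 20665 genes, 1279 gained (6.19%) and 540 lost (2.61%), with 23 in both counts. By ends, 1336 of 41330 gained (3.23%) and 580 lost (1.4%). The gained ends went from a median coverage of 0.0456 in EV to 0.519 in Base medium, and 171 of them (12.8%) had no read overlap at all in EV. The lost ends went from a median of 0.297 to 0.0623, and 23 of them (3.97%) had none in Base medium. Changes of at least 4-fold were found at 671 genes gained and 80 lost. Gains were thus larger as well as more frequent, while the number of ends that reached 0.119 was close, 4913 in EV and 5274 in Base medium. Gained genes made up 70.3% of the calls with the scaling as deposited. With an equal median of covered tiles they made up 82.0%.

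**Figure D1:**
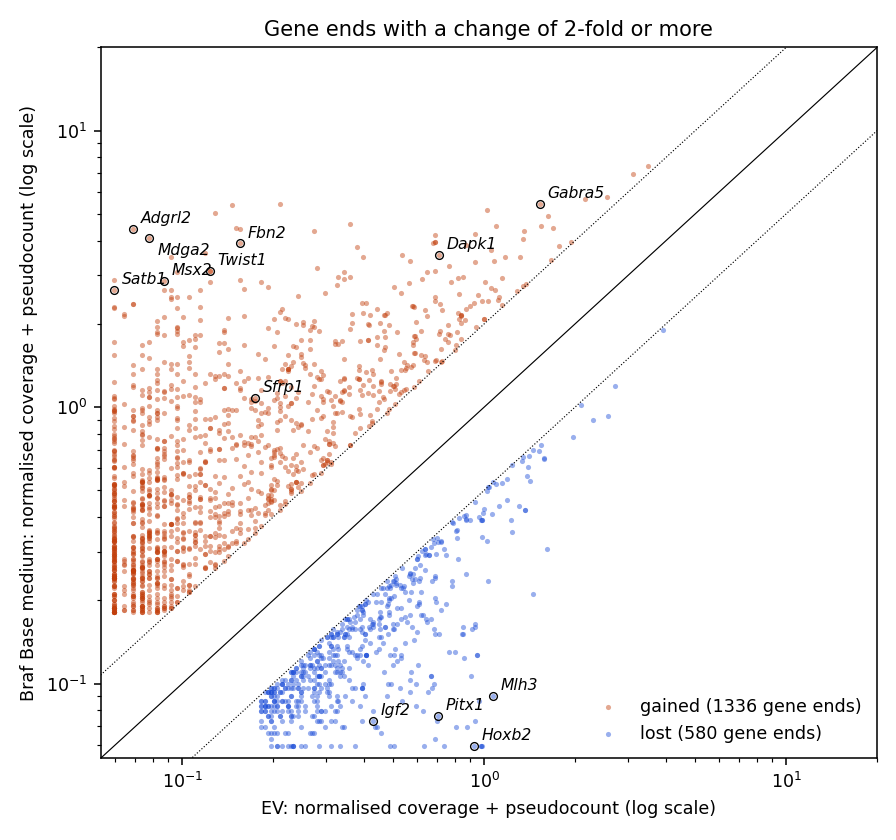
Coverage at each called gene end in EV (x axis) and in Braf organoids in Base medium (y axis), with the pseudocount of 0.0597 added and both axes on a log scale. Points are gene ends, 1336 gained and 580 lost, the solid line is equality and the dotted lines are 2-fold. Gained ends crowd at the left edge, where EV has few or no reads.

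The 12 largest gains were at ends with at most 0.0867 in EV. Adgrl2, a latrophilin adhesion receptor, had a coverage of 0.00913 in EV, 0.0935 in the third library and 4.35 in Base medium at the gene's edge on the start side, at position 148989096 of chromosome 3. The nearest start listed in RefSeq lies 34461 bp away, and there Adgrl2 had 0 in EV and 0.0101 in Base medium. At the gene's edge the ratio of Base medium to EV was 477-fold (interval 68.6 to 15191), resting on about 1 read in EV. Local background on that part of chromosome 3 was also higher in Base medium, by a log2 ratio of 0.43, and with it divided out the log2 ratio at Adgrl2 was 5.58. Mdga2, a synaptic adhesion protein that binds neuroligins, had 0.0183 in EV, 0.543 in the third library and 4.04 in Base medium (221-fold, interval 49.1 to 1477). Ptprm, a receptor phosphatase that mediates contact between cells, had 0.0684, 0.833 and 4.99 in the same order (72.9-fold, interval 33.5 to 201). In all 3 the EV library was the lowest and Base medium the highest, but EV below Base medium is how these ends were chosen. Over all gene ends the median was 0.0579 in the third library and 0.00913 in EV. A low value in the third library, as at Adgrl2, is therefore not read as a gain over EV.

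Satb1, which organises chromatin loops, had no overlap in EV, 0.151 in the third library and 2.59 in Base medium, at least 76.1-fold higher than EV when the latter is set at 3 reads. Cdyl2, a chromodomain protein, had 0, 0.0267 and 2.82 at its high-coordinate end, at least 82.9-fold higher. Both were empty in EV. The inositol transporter gene Slc2a13 went from 0 in EV to 2.24 in Base medium at its start and the organic anion transporter gene Slco3a1 from 0.00913 to 2.30. Grip1, a scaffold of glutamate receptors, had 0.00913 and 2.31, Tmem132c 0.0319 and 3.42, and Xylt1, which starts glycosaminoglycan chains on proteoglycans, 0.00456 and 2.11. Braf full medium was low at these 5 genes, between 0.0401 and 0.209. It was high at Tmem150a (0 in EV, 1.67 in the third library, 2.23 in Base medium) and at H2-DMa, a chaperone of peptide loading in antigen presentation (0.0867, 3.98 and 5.30). The window of H2-DMa lies 3139 bp from its listed start, where EV and Base medium had 0.

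Of the 10 largest losses 5 were at gene starts, and the other 5 were at ends of genes without a listed strand. Fam32a had 0.922 in EV, 0.0668 in the third library and 0 in Base medium, at least 36.8-fold lower. Ranbp17, a nuclear transport receptor, had 0.872, 0.0401 and 0.0135 (64.7-fold lower, interval 13.98 to 439). Mlh3, a mismatch repair gene whose window overlaps that of Acyp1, had 1.01, 0.0624 and 0.0303. Glyctk, a glycerate kinase, went from 0.817 in EV to 0.0101 in Base medium at the gene's edge, but from 0.913 to 0.589 at its listed start 2020 bp away, which was not called. Tnfrsf23, a decoy receptor for a death ligand, went from 0.675 to 0. Tigd5 and Eef1d, an elongation factor subunit, share a window that went from 0.917 to 0. Cacna1a, a calcium channel subunit, went from 0.904 to 0.0269 at its low-coordinate end. At all of these the third library, which is also Braf, lay below 0.125. Hoxb2 differed: its high-coordinate end had 0.867 in EV, 1.89 in the third library and 0 in Base medium.

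The sequences before 7 of these gene starts show how CpG-dense the called stretches are. Each line gives the 250 bases before the start listed in RefSeq (build GRCm38.p6, the assembly of mm10), read 5′ to 3′ on the gene's strand, with every CpG in capitals. The first 5 genes gained and the last 2 lost.
Msx2, chr13:53472781-53473030, minus strand: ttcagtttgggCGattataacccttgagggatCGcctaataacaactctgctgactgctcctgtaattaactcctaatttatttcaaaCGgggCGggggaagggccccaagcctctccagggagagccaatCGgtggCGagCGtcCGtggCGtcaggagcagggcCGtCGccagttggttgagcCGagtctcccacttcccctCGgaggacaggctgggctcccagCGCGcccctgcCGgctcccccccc
Twist1, chr12:33957421-33957670, plus strand: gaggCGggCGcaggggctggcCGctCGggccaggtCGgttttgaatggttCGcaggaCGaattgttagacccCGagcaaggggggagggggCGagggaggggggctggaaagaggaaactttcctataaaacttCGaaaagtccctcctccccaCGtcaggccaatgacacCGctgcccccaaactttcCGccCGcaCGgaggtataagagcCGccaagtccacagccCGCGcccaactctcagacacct
Fzd10, chr5:128600856-128601105, plus strand: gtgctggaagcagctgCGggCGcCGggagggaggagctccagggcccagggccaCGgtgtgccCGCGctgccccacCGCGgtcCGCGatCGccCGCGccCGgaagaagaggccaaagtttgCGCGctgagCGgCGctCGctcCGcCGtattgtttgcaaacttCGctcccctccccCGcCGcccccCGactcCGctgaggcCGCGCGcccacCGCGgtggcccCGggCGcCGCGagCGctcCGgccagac
Mdga2, chr12:67222550-67222799, minus strand: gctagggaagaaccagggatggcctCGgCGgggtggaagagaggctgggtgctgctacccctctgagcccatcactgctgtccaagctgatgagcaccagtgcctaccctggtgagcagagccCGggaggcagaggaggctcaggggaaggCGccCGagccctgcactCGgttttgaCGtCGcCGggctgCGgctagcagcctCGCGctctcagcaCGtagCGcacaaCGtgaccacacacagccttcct
Ptprm, chr17:67354460-67354709, minus strand: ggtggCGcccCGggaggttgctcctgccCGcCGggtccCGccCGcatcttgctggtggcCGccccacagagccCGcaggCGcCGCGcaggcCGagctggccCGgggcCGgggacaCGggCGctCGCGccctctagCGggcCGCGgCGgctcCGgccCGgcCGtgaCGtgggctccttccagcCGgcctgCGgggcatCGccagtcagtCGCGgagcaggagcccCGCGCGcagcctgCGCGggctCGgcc
Ranbp17, chr11:33513754-33514003, minus strand: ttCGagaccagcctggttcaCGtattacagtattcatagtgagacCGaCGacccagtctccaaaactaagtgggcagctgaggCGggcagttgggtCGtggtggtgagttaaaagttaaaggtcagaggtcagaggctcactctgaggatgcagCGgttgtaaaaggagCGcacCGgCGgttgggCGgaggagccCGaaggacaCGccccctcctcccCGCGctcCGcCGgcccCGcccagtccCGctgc
Fam32a, chr8:72219495-72219744, plus strand: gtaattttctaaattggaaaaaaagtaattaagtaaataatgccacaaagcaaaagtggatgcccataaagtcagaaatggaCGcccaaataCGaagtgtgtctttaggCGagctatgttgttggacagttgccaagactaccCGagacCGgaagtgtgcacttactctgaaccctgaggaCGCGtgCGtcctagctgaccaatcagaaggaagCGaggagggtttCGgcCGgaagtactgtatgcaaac

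Over all 16457 listed starts the median number of CpG in these 250 bases was 10. Ptprm and Fzd10 hold 37 each, a number that 2.69% of starts reach. Twist1 holds 18 (29.7% of starts have as many), Msx2 16 (35.2%) and Mdga2 15 (37.9%). Of the lost starts Ranbp17 holds 19 (26.7%), within the range of the 5 gained ones, and Fam32a 11 (49.2%), below it. Over the bins that these stretches touch, Msx2 had a coverage of 0.0502 in EV, 0.964 in the third library and 4.27 in Base medium. Twist1 had 0.0251, 0.980 and 4.45, Fzd10 0, 0.0490 and 6.17, Mdga2 0, 0.539 and 6.11, and Ptprm 0.125, 1.40 and 8.50. The order was the same in these 5, with EV lowest and Base medium highest. Ranbp17 had 1.05, 0.0490 and 0.0123, and Fam32a 1.83, 0.0245 and 0, with EV highest. The order of EV and Base medium at these genes follows from how they were chosen, and the third library holds more background than either.

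**Figure D2:**
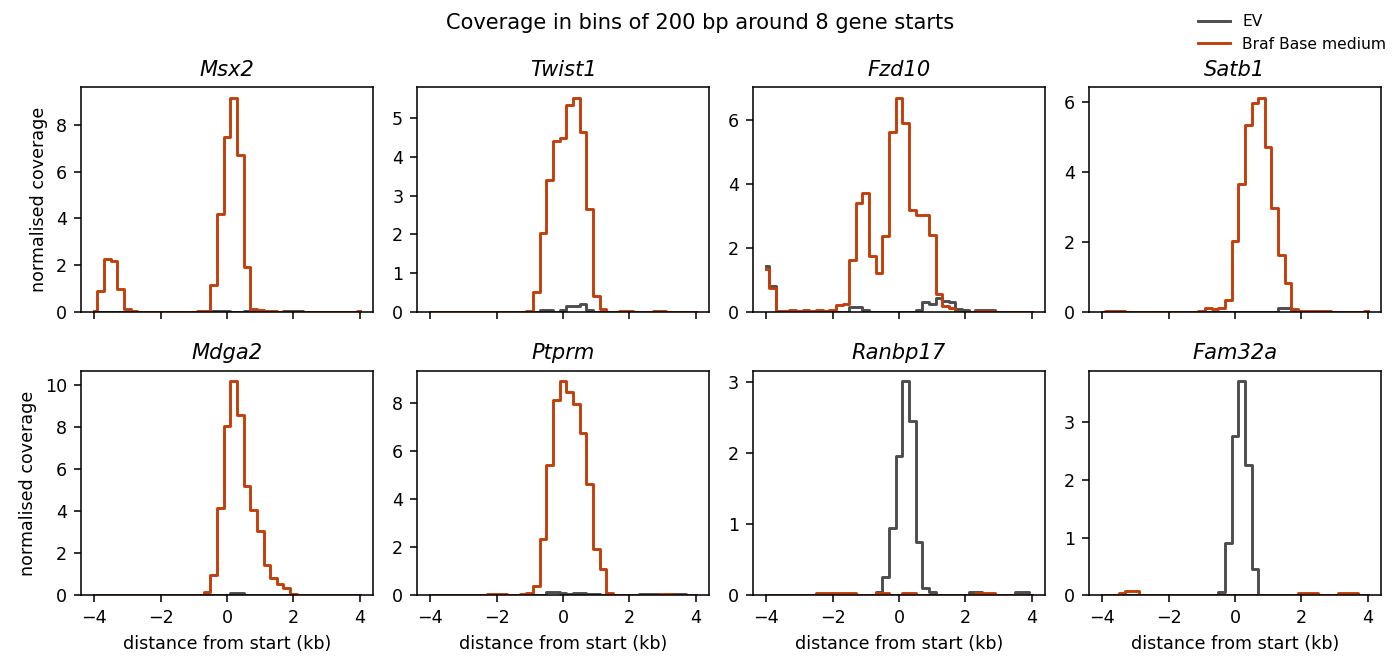
Coverage in bins of 200 bp (y axis) by distance from the gene start in kb, along the direction of the gene (x axis), at 6 starts that gained and 2 that lost; each panel has its own y scale. The gains at Twist1, Mdga2 and Ptprm are peaks at the start with little on either side, Msx2 has a second, lower peak before its start, Fzd10 has 2 summits and a shoulder, the peak of Satb1 lies after its start, and EV holds the peak at Ranbp17 and Fam32a.

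These genes were called from windows that reach 1 kb to each side, so a change near the start is how they were chosen, and the profiles show its shape. Msx2 peaked 200 bp after its start at 9.15 in Base medium, where EV had 0, with a second, lower peak of 2.26 found 3600 bp before the start. Twist1 peaked at 5.52, 400 bp after its start, against 0.151 in EV. Mdga2 reached 10.2, 200 bp after its start, against 0.1 in EV. Fzd10, a Wnt receptor, had 6.71 at its start against 0 in EV, with a further summit 1000 bp before it (3.74) and a shoulder up to 1000 bp after it (2.41). In Braf full medium the summit at Fzd10 lay elsewhere, 800 bp after the start (4.65), while the start itself had 0.0490. Fam32a peaked in EV at 3.71, 200 bp after its start. Changes also lay further from a start: Evx2, a homeobox gene, had 0.251 in EV and 8.08 in Base medium 3600 bp after its listed start, and Irx2 0.753 and 5.30 at 2800 bp after.

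Gains were more frequent at gene starts than at the other ends of the same genes, while the shares lost were close. Strand was known for 16457 genes (79.6%). Of their starts 855 gained (5.2%) and 216 lost (1.31%), whereas of their other ends 157 gained (0.954%) and 233 lost (1.42%). At the ends of genes without a listed strand 324 of 8416 gained (3.85%), a share between these, and 131 were lost (1.56%). A start here is the edge of the gene in the gene table. Of the 855 gained starts 799 were also called around the nearest RefSeq start, and of the 216 lost ones 196. Among genes named here, Adgrl2, Bmpr1b, Cbx7, Gata5, Glyctk, H2-DMa, Pax9, Ptch1 and Tjp1 were called at the edge and not around the listed start. Around all listed starts 916 gained and 235 lost. In the bin at the start the gained set had a mean coverage of 0.234 in EV and 1.68 in Base medium, and 5 kb before it the libraries had 0.0491 and 0.0478. On the gene side they stayed apart for longer, with 0.131 and 0.203 at 2 kb after the start and 0.0783 and 0.109 at 3 kb. The lost set had 0.902 and 0.222 at the start. The 1260 starts that were covered and not called had 1.24 and 1.39, and were chosen for a ratio under 2-fold.

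**Figure D3:**
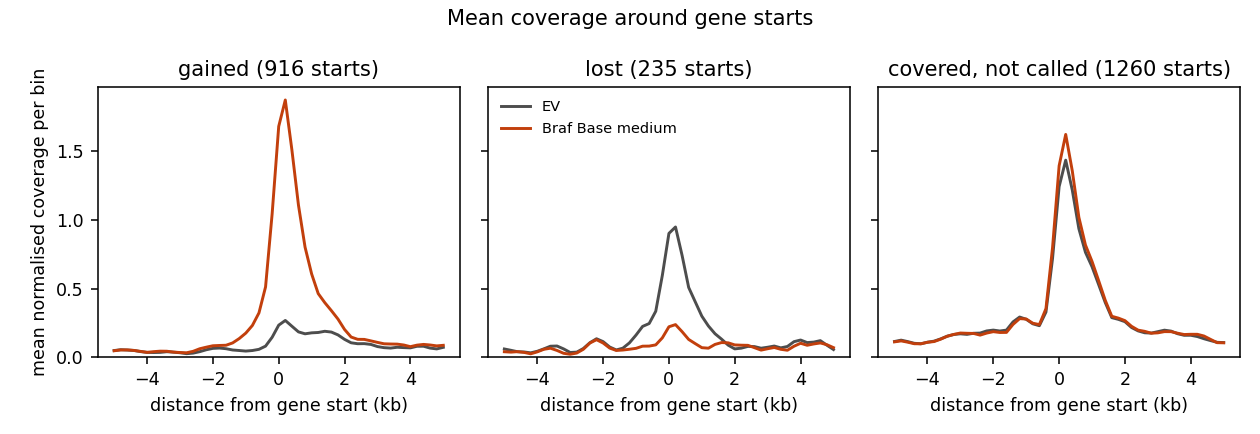
Mean coverage per bin of 200 bp (y axis) by distance from the listed gene start in kb (x axis) in EV and in Braf organoids in Base medium, for 916 gained starts, 235 lost starts and 1260 covered starts that were not called. The states were defined by the coverage within 1 kb of the start, so the gap at the centre is how they were chosen. Beyond 2 kb after the start the gained set still had somewhat more coverage in Base medium, as with 0.109 against 0.0783 at 3 kb.

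Gained starts were richer in CpG than the rest. In the 300 bases from 250 before to 50 after the start, the median count of CpG was 21 at gained starts, 9 at lost starts, 14 at covered starts that were not called, 13 at starts not covered and 14 over all. At least 15 CpG were found in 69.2% of gained and 28.5% of lost starts, against 48.8% of all. The share that gained was 0.605% of starts with 0 to 4 CpG, 4.76% with 5 to 9 and 9.31% with 10 to 14. Above that it stayed between 7.69% and 8.30%. The share lost was highest at 3.30% with 5 to 9 CpG and fell to 0.582% with 30 or more. Among covered starts the median log2 ratio went from -0.26 in the class with fewest CpG to 1.54 in that with most. Capture by MBD needs several methylated CpG in a fragment, so starts with few CpG are seen less well in both libraries.

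Developmental transcription factors were among the gene lists with high shares of gains. Of 261 measured genes on 4 such lists 115 gained and 11 lost, 44.1% and 4.21%, against 6.19% and 2.61% of all genes, and their median log2 ratio was 0.97 against 0.02. Of their starts 66 of 174 gained (37.9%), and of their other ends 18 of 174 (10.3%), against 5.2% and 0.954% over all genes of known strand. Of 97 homeobox genes outside the Hox clusters 47 gained and 3 lost (48.5% gained), with a median log2 ratio of 1.16. Of 50 Pax, Tbx, forkhead and Sox factors 25 gained and 2 lost (50.0% gained, median 1.16), and of 75 bHLH, zinc finger and other factors 31 gained and 1 lost (41.3%, median 0.76). The Hox genes had a lower share, 30.8%, below those of several neural lists and of the methylator panel.

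**Figure D4:**
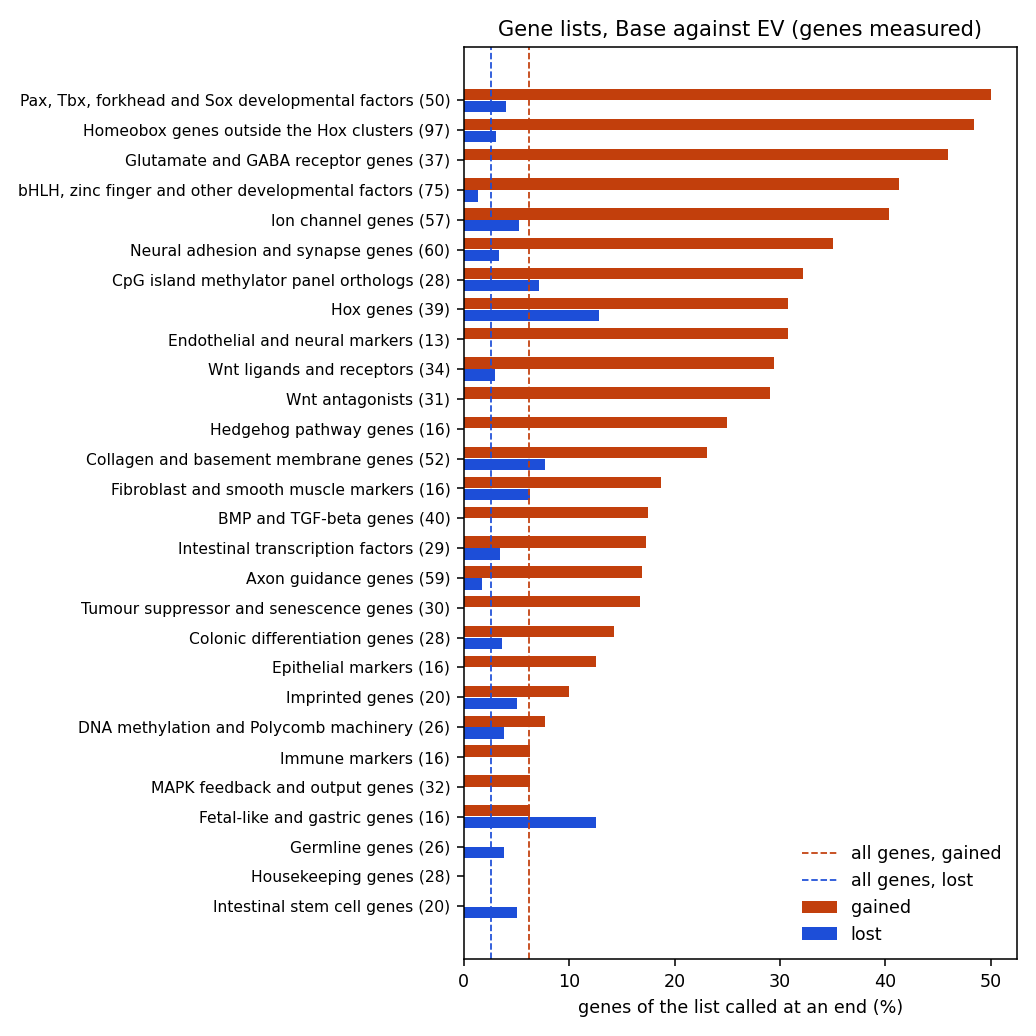
Percent of the measured genes of each list (x axis) that gained or lost coverage at an end in Base medium against EV, with the number measured in brackets and the same shares over all genes as dashed lines. The Pax, Tbx, forkhead and Sox list, the homeobox list and the glutamate and GABA receptor list stand highest for gains. Germline, housekeeping and stem cell genes show none, on lists too small to set apart from the share of all genes.

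Among homeobox genes, Msx2, a factor of limb and skull development, had 0.0274 in EV, 0.410 in the third library and 2.81 in Base medium at its start (103-fold for Base medium over EV, interval 34.0 to 1026). Its other end had 0 and 0.0775 and was not called. Nkx1-1 had 0.0274, 0.454 and 2.60 at the end that is not its start. At its start it had 0.548, 1.74 and 1.19, a log2 ratio of 1.04, with the third library highest. Hmx1, a craniofacial and sensory neuron factor, had 0.214, 1.41 and 4.28 at its start. Dlx2, a forebrain factor, had 0.0411, 0.0757 and 0.707 at its start. Its other end had 0.00456, 0.178 and 0.963, and there the log2 ratio of 3.99 went to 0.39 in windows of 500 bp, which ended the call. Among the 47 gains on the list of 97 homeobox genes were 5 Iroquois genes, named after their values were seen. These were Irx1 (0.301 to 1.86), Irx5 (0.0821 to 0.818), Irx6 (0.0913 to 0.589), Irx4 (0 to 0.189) and Irx3 (0.0319 to 0.178). Nkx6-1, a factor of ventral neural tube and beta cells, went from 0.132 to 2.65 and Nkx6-2 from 0.301 to 4.53. The 3 losses included Pitx1, a hindlimb factor (0.643 to 0.0168), and Tlx1 (0.256 to 0.0674).

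In the Pax, Tbx, forkhead and Sox list, Pax9, needed for teeth and pharyngeal pouches, had 0.0365 in EV, 0.432 in the third library and 1.82 in Base medium at the gene's edge, 3778 bp from its listed start, where EV had 0.0183 and Base medium 0.0202. Foxi3 had 0.00913, 0.615 and 0.839. Sox17, an endoderm and endothelial factor, had 0.0137, 0.423 and 0.802 at its low-coordinate end and 0.0274, 0.503 and 0.697 at the other, and its relative Sox18 had 0.00913, 0.388 and 0.633. Base medium was the highest of the 3 libraries at each, and the third library lay nearer to it than to EV at Foxi3, Sox17 and Sox18. Foxd3, a neural crest factor, already had 1.03 in EV at its low-coordinate end and 4.44 in Base medium. Foxi1 (0.402 to 0.0808) and Foxd2 (0.447 to 0.185) were lost.

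Among bHLH and other factors, Twist1, which specifies mesoderm, had 0.0639 in EV, 0.575 in the third library and 3.04 in Base medium at its start (47.6-fold for Base medium over EV, interval 20.3 to 123), while its other end had 0 and 0.0202. Hand1 and Hand2, heart and limb factors, had 0.00913, 0.927 and 1.36, and 0.0183, 0.650 and 0.946. Eya4, a transcriptional coactivator and phosphatase, had 0.00913, 0.116 and 0.872. Wt1, a kidney factor, went from 0.178 to 1.94 and Bhlhe22 from 0.224 to 1.83. Zic1 and Zic4 lie head to head and share a window, which went from 0.164 to 1.31. Olig2, an oligodendrocyte factor, was the 1 loss (0.251 to 0.0236).

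Hox genes went both ways. Of 39 genes in the 4 clusters 12 gained (30.8%) and 5 lost (12.8%), against 6.19% and 2.61% of all genes. Their median log2 ratio was 0.28, and Hoxa6 was in both counts. Hoxd1 had 0.00456 in EV, 0.236 in the third library and 2.08 in Base medium at its start, and 0.00913, 0.0535 and 0.0202 at its other end. Hoxd13, at the opposite side of the same cluster, had 0.0228, 0.303 and 1.19, and Hoxa6 0.0183, 1.10 and 1.11 at its start. In the HoxB cluster Hoxb1 gained (0.0958 to 1.11) while Hoxb5 (0.443 to 0) and Hoxb2 lost at both ends, the latter from 0.748 to 0.0101 at its low-coordinate end. Of the 22 Hox starts with a known strand 8 gained and 0 lost, and the losses among ends of known strand were 3, all at ends that are not starts (Hoxa6, Hoxd3 and Hoxd4).

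Of 31 genes that restrain Wnt signalling 9 gained (29.03%) and 0 lost, against 6.19% and 2.61% of all genes. Their median log2 ratio was 0.23. The list is too small to set its 0 lost apart from the 2.61% of all genes. Sox17, Sox18 and Sox7 are counted here as well as above. The secreted frizzled-related genes, which bind Wnt ligands, gained at 3 members: Sfrp1 (0.114 in EV, 0.463 in the third library, 1.02 in Base medium), Sfrp2 (0, 0.330 and 0.397) and Sfrp4 (0.00913, 0.0668 and 0.192). Sfrp4 was not called with a pseudocount 4 times as large (log2 ratio 0.80). Sfrp2 lies in the shifted part of chromosome 3, and its log2 ratio went from 2.94 to 2.53 with local background divided out. Notum, a deacylase that inactivates Wnt ligands, had 0.205, 0.864 and 1.84. Frzb went from 0.0593 to 0.576 and Shisa3 from 0.0593 to 0.579.

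Wnt ligands and receptors gained too, 10 of 34 (29.4%) with 1 lost (2.94%), against 6.19% and 2.61% of all genes. Their median log2 ratio was 0.27. Frizzled receptors led: Fzd10 had 0.0593 in EV, 1.05 in the third library and 3.55 in Base medium (59.8-fold over EV, interval 26.6 to 193), Fzd9 0.0365, 0.410 and 0.842, Fzd3 0, 0.151 and 0.694, and Fzd8 0, 0.0490 and 0.276. At Fzd8 the log2 ratio of 2.49 went to 0.70 in windows of 500 bp, which ended the call. Of the ligands, Wnt3, Wnt4, Wnt5a, Wnt5b and Wnt16 gained to between 0.162 and 0.317, and Wnt8a was lost (0.246 to 0.0808). In the BMP and TGF-beta list 7 of 40 gained (17.5%) and 0 lost (median 0.19). Bmpr1b, a type I BMP receptor, had 0.0456, 0.895 and 1.69, in a segment where its log2 ratio of 4.06 went to 3.46 with local background divided out; around its listed start, 187321 bp away, it had 0.00913 in EV and 0.0438 in Base medium. Gdf7, a BMP ligand, had 0, 0.258 and 0.310 at its start, whose window overlaps that of Ldah, Tgfbr3, a co-receptor, 0.0137, 0.192 and 0.273, and Gdf6 0.0183, 0.151 and 0.276. In windows of 500 bp Tgfbr3 (0.27) and Gdf6 (0.19) fell short of a log2 ratio of 1. Of 16 Hedgehog pathway genes 4 gained and 0 lost. These were the ligands Dhh (0.0776, 1.39 and 1.11) and Ihh (0.0411, 0.998 and 0.253), the receptor Ptch1 (0.0137, 0.0356 and 0.182) and the co-receptor Gas1 (0.630, 0.129 and 3.05). Ptch1 (0.74) and Ihh (0.81) fell short of a log2 ratio of 1 with a pseudocount 4 times as large, as did Ptch1 in windows of 500 bp (0.91). Braf full medium was the highest library at Dhh and Ihh and the lowest at Gas1.

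Genes of intestinal identity gained at some members. Of 29 intestinal transcription factors 5 gained and 1 lost (17.2% and 3.45%, against 6.19% and 2.61% of all genes; median log2 ratio 0.15). Beside Satb1 these were Cdx1, which drives intestinal fate (0 in EV, 1.31 in the third library, 0.741 in Base medium, in a window shared with Gm52351), Pdx1, a factor of pancreas and duodenum (0.00456, 0.352 and 0.458 at the end that is not its start), Gata5 (0.0821, 0.668 and 0.424) and Foxa3 (0.484 to 1.09). The start of Pdx1 gained as well, with 0.251 in EV, 0.695 in the third library and 0.573 in Base medium (log2 ratio 1.03). The values of Gata5 are those at the gene's edge. Around its listed start, 824 bp away, it had 1.59 in EV, 2.69 in the third library and 2.58 in Base medium (log2 ratio 0.68), and was not called. In windows of 500 bp the calls at the edge of Gata5 (log2 ratio 0.89) and at the end of Pdx1 that is not its start (0.39) ended. Klf5, a factor of crypt proliferation, was lost (1.39 to 0.640), and its log2 ratio of -1.05 was past the limit only with the scaling as deposited and not with the other scalings tried. Cdx2, the relative of Cdx1, had 0 in both libraries at both ends and at most 0.0891 in Braf full medium.

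Of 28 colonic differentiation genes 4 gained and 1 lost (14.3% and 3.57%, against 6.19% and 2.61% of all genes; median 0). Slc5a8, a transporter of short-chain fatty acids silenced in human colon cancers, had 0.0365 in EV, 0.0535 in the third library and 0.694 in Base medium. Chgb, a granin of enteroendocrine cells, had 0, 0.107 and 0.269, the protocadherin gene Cdhr1 0, 0.169 and 0.239, and the carbonic anhydrase gene Car4 0.0365, 0.0401 and 0.242. Car4 was not called with a pseudocount 4 times as large (log2 ratio 0.81). Cdhr5 was lost (0.899 to 0.340). Of 20 stem cell genes 0 gained and 1 lost (5.0%), numbers too small to set apart from the shares of all genes. The loss was at Hopx, a marker of slowly cycling stem cells (0.224, 0.0223 and 0.0135), and it was not called with a pseudocount 4 times as large (log2 ratio -0.87) or with a minimum of 5 times the mean coverage. Lgr5, the marker of cycling crypt stem cells, had at most 0.0168 in these libraries. Of 16 fetal-like and gastric genes 1 gained, Sox2 (0.132, 0.472 and 0.404), which was not called with the larger pseudocount (log2 ratio 0.79). In the same list 2 lost, among them Il33 (0.347, 0.174 and 0.141 at the end that is not its start). The log2 ratio at Il33 was -1.02 and was past -1 in none of the 3 other scalings, so that 1 gained and 1 lost there.

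The shares of gains among genes of tumour suppression and of the methylator panels were above that of all genes, though the first rests on only 5 genes. Of 30 genes of tumour suppression and senescence 5 gained and 0 lost (16.7% gained, against 6.19% of all genes; median 0.18). Dapk1, a kinase that promotes cell death, had 0.648 in EV, 1.87 in the third library and 3.50 in Base medium (5.41-fold over EV, interval 4.10 to 7.27). Igfbp7, a secreted protein tied to BRAF-induced senescence, had 0.648, 1.13 and 1.78 (2.75-fold over EV, interval 2.06 to 3.77), and Timp3, an inhibitor of metalloproteinases, 0.780, 2.33 and 1.95. Cdkn2a, which encodes p16 and p19, had 0.0730, 0.236 and 0.239 at its start, and was not called with a pseudocount 4 times as large (log2 ratio 0.62). Dapk1, Igfbp7 and Timp3 already held coverage in EV. Of 28 orthologs of genes from human methylator panels 9 gained and 2 lost (32.1% and 7.14%, against 6.19% and 2.61% of all genes). Their median log2 ratio was 0.19. Fbn2, a fibrillin, had 0.0958, 0.699 and 3.85, and both ends of Socs1, an inhibitor of cytokine signalling, gained (0.411 to 1.73 and 0.146 to 1.07). The losses were at Igf2 (0.370, 0.281 and 0.0135) and Bcat1 (0.219 to 0.0202). At Igf2 the log2 ratio of -2.55 went to -0.64 in windows of 500 bp, which ended the call.

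Feedback and output genes of the MAPK pathway gained at about the share of all genes. Of 32 genes 2 gained (6.25%) and 0 lost, against 6.19% and 2.61% of all genes. Dusp2, a phosphatase of MAP kinases, had 0 in EV, 0.192 in the third library and 0.229 in Base medium, and was not called with a pseudocount 4 times as large (log2 ratio 0.97). Spry4, a feedback inhibitor, had 0.114, 0.0624 and 0.290 in a window shared with Arhgap26, and its log2 ratio of 1.01 went to 0.89 with local background divided out. Braf itself had 0 in EV and 0.0135 in Base medium at its start.

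Neural genes were the other large group of gains. Of 213 genes on 4 neural lists 71 gained and 6 lost, 33.3% and 2.82%, against 6.19% and 2.61% of all genes. Their median log2 ratio was 0.33. Of their starts 46 of 156 gained (29.5%), and of their other ends 4 of 156 (2.56%), against 5.2% and 0.954% over all genes of known strand. Of 60 adhesion and synapse genes 21 gained (35.0%) and 2 lost (3.33%). Beside Adgrl2, Mdga2, Ptprm and Grip1, Cdh4, which encodes R-cadherin, went from 0.151 to 5.37, and the sidekick genes Sdk1 and Sdk2, which guide synaptic layers, from 0.0639 to 3.05 and from 0.0913 to 4.37. Cntnap1 (0.297 to 0.0438) and Csmd1 (0.488 to 0.115) were lost. Of 57 ion channel genes 23 gained (40.4%) and 3 lost (5.26%). Cacna1b, the N-type calcium channel, had 0.0548 in EV, 1.28 in the third library and 2.59 in Base medium, and the potassium channel genes Kcnd3 and Kcnc4 had 0.0274, 0.129 and 1.40, and 0, 0.401 and 0.637. Both potassium channel genes lie on distal chromosome 3, and their log2 ratios of 4.07 and 3.54 went to 3.54 and 3.05 with local background divided out.

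Of 37 glutamate and GABA receptor genes 17 gained (45.9%) and 0 lost, against 6.19% and 2.61% of all genes (median 0.69). Grik3, a kainate receptor subunit, had 0.0319, 0.918 and 2.59, and the NMDA receptor genes Grin3a, Grin2a and Grin1 had 0 in EV and 1.17, 0.374 and 0.370 in Base medium. At these 3 Braf full medium lay between 0.0757 and 0.263. The GABA receptor gene Gabra5 was already covered in EV (1.47) and had 5.36 in Base medium. Of 59 axon guidance genes 10 gained and 1 lost (16.9% and 1.69%; median 0.22). The semaphorin gene Sema6c had 0.0319, 0.788 and 1.37 at its start, on distal chromosome 3, where its log2 ratio of 3.96 went to 3.46 with local background divided out and to 0.60 in windows of 500 bp, which ended the call there. The other end of Sema6c also gained, from 1.62 to 4.37. The netrin receptor gene Unc5d had 0.0365, 0.0713 and 0.946, the ephrin receptor gene Epha5, whose window overlaps that of Gm42163, 0.0228, 0.0401 and 0.522, and the plexin gene Plxnc1 0.0456, 0.869 and 0.576. Unc5a was lost (0.224 to 0.0471).

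Collagen and basement membrane genes went both ways, with 12 of 52 gained and 4 lost (23.1% and 7.69%, against 6.19% and 2.61% of all genes; median 0.08). Nid1, a linker of basement membranes, had 0.0365 in EV, 1.92 in the third library and 1.87 in Base medium, and Col15a1 had 0.00913, 0.441 and 0.320. At both the Braf libraries were alike. Col1a1, of fibrillar collagen, was lost (0.397, 0.0713 and 0.00674), as were Lamc3 (0.283 to 0.0101), Col6a1 (0.283 to 0.0606) and Col22a1 (0.488 to 0.155).

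Germline genes are known to be methylated in somatic tissue, and were here in both libraries. Of 26 germline genes 0 gained and 1 lost (3.85%), against 6.19% and 2.61% of all genes, numbers too small to set apart from those shares. Their median log2 ratio was 0.08, and many were highly covered: Dazl had 3.50 in EV and 4.85 in Base medium, Ddx4 3.02 and 3.52, and Sycp1 3.81 and 5.04. The loss was at Piwil1, of the piRNA pathway (0.634, 0.205 in the third library, 0.138). Of 20 imprinted genes 2 gained (10.0%) and 1 lost (5.0%), numbers too small to set apart from the shares of all genes (median 0.50). The gains were at Grb10, a growth factor receptor adaptor (0.219, 1.20 and 3.13), and Dlk1 (0.415, 0.423 and 2.14), and the loss was at Igf2, whose call ended in windows of 500 bp. Others with a methylated control region were covered in both libraries, such as Peg3 (1.70 and 1.87), Peg10 (3.15 and 4.85) and Plagl1 (2.09 and 2.66). No housekeeping gene was called among 28 (median 0.07), a list too small to set apart from the 6.19% gained and 2.61% lost of all genes. In the machinery of DNA methylation and Polycomb 2 of 26 gained (7.69%), near the 6.19% of all genes. Among them was the Polycomb subunit Cbx8 (0.520, 1.37 and 1.62 at the end that is not its start). Of the same list 1 was lost (3.85%), Cbx7 (0.338, 0.111 and 0.0606 at the gene's edge). It was not called at its listed start or with a pseudocount 4 times as large (log2 ratio -0.95).

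Markers of cell types gained at 2 of 16 epithelial (12.5%), 3 of 16 fibroblast and smooth muscle (18.8%), 1 of 16 immune (6.25%) and 4 of 13 endothelial and neural genes (30.8%), against 6.19% of all genes. Median log2 ratios of these lists, in the same order, were -0.21, -0.13, 0.10 and 0.38, against 0.02 over all genes. The part of the marker genes in the results was not tested. The epithelial gains were Cdx1 and the junction gene Tjp1 (0.256, 0.548 and 0.953). Coverage summed over the 32 ends, these 2 genes included, was 1.12 in EV and 2.26 in Base medium, while the median of the list was below 0. The epithelial genes Ocln, Cldn4 and Cdh17 had at most 0.0137. Of the fibroblast and smooth muscle markers Zeb2 (0, 0.134 and 0.246), Vim (0.0319, 0.294 and 0.283) and Des (0.178, 0.370 and 0.478) gained and Col1a1 lost, with sums of 1.36 and 1.61. Of the immune markers Kit gained (0.0228, 0.0757 and 0.707), with sums of 0.534 and 1.26. Of the endothelial and neural markers Kdr (0.0137, 0.200 and 0.478), Sox10 (0.0228, 0.272 and 0.573), Elavl3 and Elavl4 gained, with sums of 2.79 and 4.07. Vim, Des, Elavl3 and Elavl4 were not called with a pseudocount 4 times as large (0.78 to 0.95), nor Sox10 in windows of 500 bp (0.91). In EV 13, 13, 13 and 11 ends of these lists had no overlap, and in Base medium 11, 11, 5 and 3.

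Away from gene ends the balance was reversed. Of all 1-kb tiles 6128 gained (0.249%) and 24229 lost (0.984%), so that gains made up 20.2% of the called tiles with the scaling as deposited. With equal totals they made up 28.8%, with an equal median of covered tiles 39.2% and with the median ratio set to 1 33.9%. Tiles within 1 kb of a gene end were 4.41% of all tiles but 39.8% of the gained and 6.54% of the lost. There 2439 gained and 1585 lost. Inside genes 2501 gained and 9419 lost, and outside genes 1188 gained and 13225 lost. Mean coverage was 0.0819 in EV and 0.102 in Base medium near gene ends, 0.0508 and 0.0474 inside genes and 0.0489 and 0.0386 outside. The median log2 ratio of covered tiles was 0.04 near ends, -0.25 inside genes and -0.52 outside. The order held at each level of coverage: outside genes the median ran from -0.64 at the lowest level to -0.28 at the highest, inside genes from -0.31 to -0.08, and near ends from -0.08 to 0.23. Multiplying Base medium coverage to an equal median of covered tiles would move every log2 ratio up by at most 0.36, which leaves the order as it is.

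**Figure D5:**
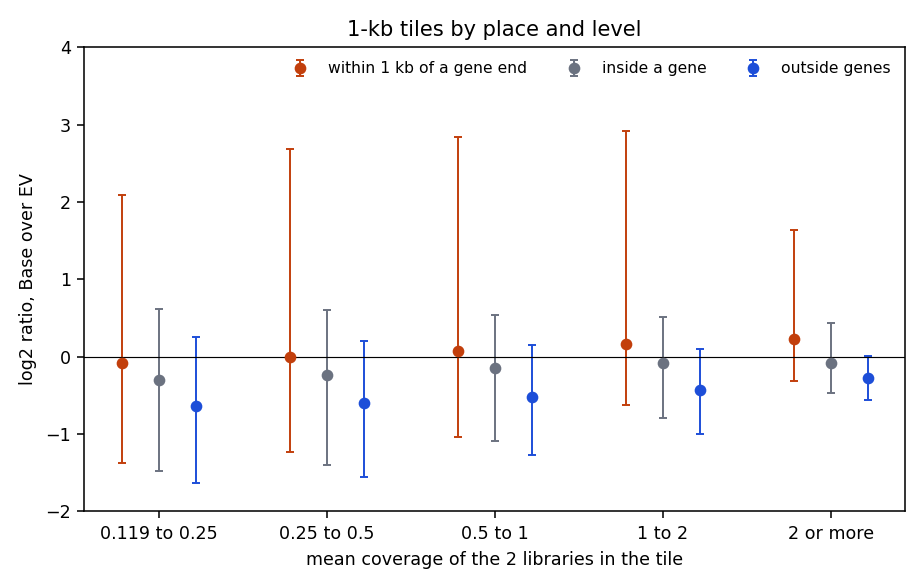
Median log2 ratio of Base medium over EV (y axis) of covered 1-kb tiles by place, in classes of the mean coverage of both libraries (x axis); bars run from the 10th to the 90th percentile of the tiles and are not errors. At every level tiles outside genes lie lowest and tiles near gene ends highest, with a long upper tail.

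Called tiles were mostly isolated. The gained tiles formed 4634 runs, 3367 of them a lone tile, and the lost ones 20589 runs, 17309 of them a lone tile. Of the 5 longest gained runs, 4 covered genes of transcription factors. On chromosome 14 a run of 6 kb (21981001 to 21987000, build mm10) over Zfp503 went from a mean of 0.0753 in EV to 2.61 in Base medium, with 2.62 in Braf full medium. Runs of 6 kb also covered Nkx6-2 (0.308 to 2.64), Dmrta2 (0.868 to 3.22) and Mkx (0.823 to 2.36). The longest gained run, of 10 kb on chromosome 13, overlapped the predicted gene Gm36079 with Gm21188 beside it (0.253 to 1.83); these predicted genes may have near copies, where reads are placed less surely. Several lost runs tied at 5 kb, and that in Lrp1 was taken for its larger gap between the libraries. The 5 longest lost runs so picked overlapped no gene end. They lay within Cacna1h (0.852 to 0.270), Chst11 (0.274 to 0.0198) and Lrp1 (1.004 to 0.20), and at 2 places on chromosome 6 outside genes, the longer of 11 kb from 114502001 to 114513000 (0.365 to 0.105).

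Local background moved with the calls in a few large regions. Over 501 segments of 5 Mb, the background ratio lay within a log2 of 0.3 of the typical segment in 442, above it in 22 and below it in 37. All 22 above it were on chromosome 3 from 50 Mb on, between 0.33 and 0.64. There 470 tiles gained and 520 lost, 0.904 gained for each lost, against 0.239 over the other segments. On chromosome 14 from 70 Mb on, 11 segments lay between -1.12 and -0.62, and 37 tiles gained and 796 lost there. At the distal end of chromosome 4, 7 segments lay between -0.69 and -0.31, with 113 gained and 1016 lost. Copy number was not measured. With local background divided out, 1283 genes gained and 497 lost, close to the main counts.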

How the data were processed

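MBD-seq libraries were made from 100 to 200 ng of DNA sheared to 200 to 400 bp and read as single reads of 50 bp, per the labels' protocols. The submitters' processing notes name Bowtie2 and mm10 with no version, and how the values per bin were made is not stated in the labels. The deposited table holds the authors' log2 values for 12313737 bins of 200 bp on chromosomes 1 to 19. Raised from the log2 scale, every value was 0.0153, the floor of all libraries, plus whole steps (tolerance 0.001 of a step). Steps of 0.0502 in EV and 0.0370 in Base medium were taken as read overlaps, 12530155 and 14850571 in all, at 2.49 and 2.48 bins a read.

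Coverage was averaged over gene ends from a GRCm38.p6 gene table and over tiles. Strand came from the RefSeq start table, in which 1646 of 16457 starts lie over 1 kb from the gene's edge. Intervals are exact binomial (Clopper-Pearson, 95%) on estimated reads, and a fold against 0 uses 3 reads. Local background is the mean of uncovered tiles over 10 kb from any gene end, in segments of 5 Mb. The calling rule was run on simulated data with counting error only and changes planted at well-covered ends. Such data hold no spread between cultures, so they cannot show how many calls here are false. The naming rule took 12 gains and 10 losses by size, at most 4 called genes from each of 28 gene lists, 12 fixed genes and the 5 longest runs of either call; other members were named after their values were seen, and some called genes are counted but not reported by name here. The lists and the comparison were chosen with earlier results of these data known. Python 3.11.15, numpy 2.4.6, pandas 2.3.3 and scipy 1.17.1 were used.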

Additional observations from a re-analysis of the deposited data

How the results depend on the processing

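More genes gained than lost, and fewer tiles gained than lost, under each of the alternatives run; gains were 66.0% to 89.3% of called genes and 19.4% to 45.5% of called tiles. No paired analysis was possible because each side holds 1 library. Rescaling raised Base medium coverage by a log2 factor of 0.19 (equal totals), 0.28 (median ratio set to 1) or 0.36 (equal median of covered tiles). With the pseudocount added, log2 ratios moved up by at most as much. The median of all genes went from 0.02 to at most 0.16. With the equal median, 10731 tiles gained (5158 inside genes, 2282 outside) and 8740 outside genes were lost, while 287 ends that are not starts gained and 147 were lost. With the median ratio set to 1, 9222 tiles gained (4294 inside genes, 1912 outside) and 246 ends that are not starts. This alternative, the subtraction of mean background and the removal of shifted segments were chosen after seeing the data.

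With a pseudocount 4 times as large, 787 genes gained and 127 were lost. It left 534 starts gained and 64 lost, and 84 of the other ends gained and 38 lost. Of tiles 3058 gained and 6033 were lost, with 1571 and 439 near gene ends, 1012 and 2410 inside genes, and 475 and 3184 outside. With a minimum of 5 times the mean, 272 genes were lost, as were 114 starts and 112 of the other ends, of which 102 gained. Of tiles 3811 gained and 12436 were lost, with 811 lost near ends, 1450 and 4563 inside genes and 628 and 7062 outside. With no minimum 9342 tiles gained, 4082 of them inside genes and 2255 outside, and 14182 were lost inside genes. At 4-fold, 671 genes gained and 80 were lost, with 466 and 39 starts and 60 and 28 of the other ends. Of tiles 2512 gained and 3004 were lost, with 1303 and 272 near ends, 802 and 1344 inside genes and 407 and 1388 outside. At listed starts alone 235 genes were lost. A stricter rule leaves fewer features by construction.

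Of 102 calls at gene ends taken by the naming rule, 16 were lost with the larger pseudocount, 16 with the higher minimum and 21 at 4-fold. In windows of 500 bp 14 were lost, with local background divided out 2, and in each scaling 1, Il33. Segments of shifted background hold 13. None of the 102 changed direction. Genes named outside the rule, such as Foxd2 and Klf5, are not in these counts, and the call at Klf5 also ended in each other scaling. About 5041726 and 5985362 reads limit what can be seen: a gene end with under 3 reads in EV has a wide interval, and 1 library a side leaves the spread between cultures unmeasured.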
